A study of Mus musculus with 12 samples.

Results

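Long interspersed element 1 (LINE-1, L1) copies of 6 kb or longer are described here in RNA attached to chromatin of mouse embryonic stem cells. The copies were all repeat loci annotated as LINE/L1 whose end lay at least 6000 bp from their start, which gave 12415 of 836507 L1 loci, or 1.48%, and 0.252% of 4929385 repeat loci. They were chosen by length alone. Strand, reading frames and intactness were not assessed, and the names of the loci carry no subfamily. Positions are on GRCm39 as deposited, with no statement of whether starts count from 0 or 1.

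L1 is the most abundant family of retrotransposons in the mouse genome that moves without help from another element. A full-length copy carries a promoter at its front end, a pair of reading frames, one of which encodes the reverse transcriptase, and a tail of adenosines. In the mouse the promoter is made of repeated units whose number differs among copies, and most copies in the genome lack their front part because reverse transcription starts at the tail. N6-methyladenosine (m6A) is the most common internal base modification of messenger RNA, it also marks L1 RNA on chromatin in embryonic stem cells, and Alkbh5 is an enzyme that removes it.

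The cells were of the E14TG2a line, grown with LIF and the inhibitors PD0325901 and CHIR99021, and an m6A antibody was used to pull down fragments of the RNA attached to their chromatin. The genotypes were a deletion within Alkbh5 labelled del-cIDR (ΔcIDR here), where IDR stands for intrinsically disordered region, a knockout of Alkbh5 (KO), and wild type (WT). The series lists 12 samples, and the tables used hold 6 libraries, 2 per genotype. Columns were read as immunoprecipitated from "Me" in their names, those named KI were taken for ΔcIDR since the other names give KO and WT, and both KO columns are named KO6 and may be 1 line. With 0 columns read as input, m6A, the amount of RNA (cells or RNA per cell) and the number of gene copies cannot be told apart. Nothing in the labels says that replicates were separate cultures, so the spread behind each p-value may be technical. How reads that map to several places were counted is not stated, and counts of single near-identical copies are uncertain for that reason.

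Each library held 20922839 to 26267351 reads in repeat loci. The deposited signal is the read count times 1 factor per library, and 814 to 1870 reads of the m6A spike-in RNA set that factor. The ratio of m6A to unmodified spike-in reads was 0.159 and 0.20 in ΔcIDR, 0.316 and 0.698 in KO and 0.256 and 0.640 in WT. Both ΔcIDR libraries had the lowest ratios, and replicate 2 had the higher ratio in each genotype. Over all 433487 repeat loci with enough signal to be tested, the median log2 difference on the deposited scale was −0.29 for KO against WT, 0.33 for ΔcIDR against WT and 0.61 for ΔcIDR against KO. Counts are therefore given on the deposited scale and again after each library was centred on its median over these loci. Log2 changes of single loci are on the log2(signal + 5) scale, which understates changes of weak loci.

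Most long copies carried few reads and a small number carried many. The copies spanned 79.6 Mb, or 15.3% of the length annotated as L1, with a median length of 6315 bp, quartiles of 6181 and 6497 bp and a longest copy of 16160 bp. Their mean number of reads per library had a median of 11, quartiles of 2.33 and 34.2 and a 99th percentile of 201. A total of 874 copies (7.04%) had 0 reads in every library, which allows up to 3 reads, and 555 had a mean of at least 100 reads. The 1000 copies with the most reads held 44.1% of the reads of all copies, and 1290 copies held 50% of them.

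Signal per kb, summed within steps of length, grew with the length of the copy in each library. Copies of 6.0 to 6.5 kb had 8.75 and 5.64 signal per kb in ΔcIDR, 5.39 and 4.73 in KO and 5.58 and 7.21 in WT. Copies of 7.0 to 7.5 kb had 35.7 and 27.1 in ΔcIDR, 27.7 and 24.0 in KO and 23.5 and 29.9 in WT. The 78 copies of 8 kb and longer had 72.6 and 53.7 in ΔcIDR, 58.3 and 46.7 in KO and 47.6 and 62.8 in WT. In the shortest of these steps both KO libraries lay below all others by a small margin, and in the other two the 3 genotypes overlapped. A few copies weigh heavily in the sum at 8 kb and longer. There chr3:6362472-6378632 had a mean signal of 7532 and chr5:68370525-68379581 one of 3827. The median of mean reads did not grow at the end, at 88.2 for 7.5 to 8.0 kb and 79.8 for 8 kb and longer.

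Copies with 0 reads were most common among the shortest of the long copies. The median of mean reads was 6.5 over the 9330 copies of 6.0 to 6.5 kb, 42.2 over 2346 copies of 6.5 to 7.0 kb, 76.7 over 539 copies of 7.0 to 7.5 kb, 88.2 over 122 copies of 7.5 to 8.0 kb and 79.8 over the longest 78. Copies with 0 reads in every library made up 9.04%, 1.24%, 0.186%, 0% and 1.28% of these steps. Among the 1599 L1 loci of 5.5 to 6.0 kb, just below the limit, the median was 1.33 reads and 23.6% had 0 reads.

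**Figure D1:**
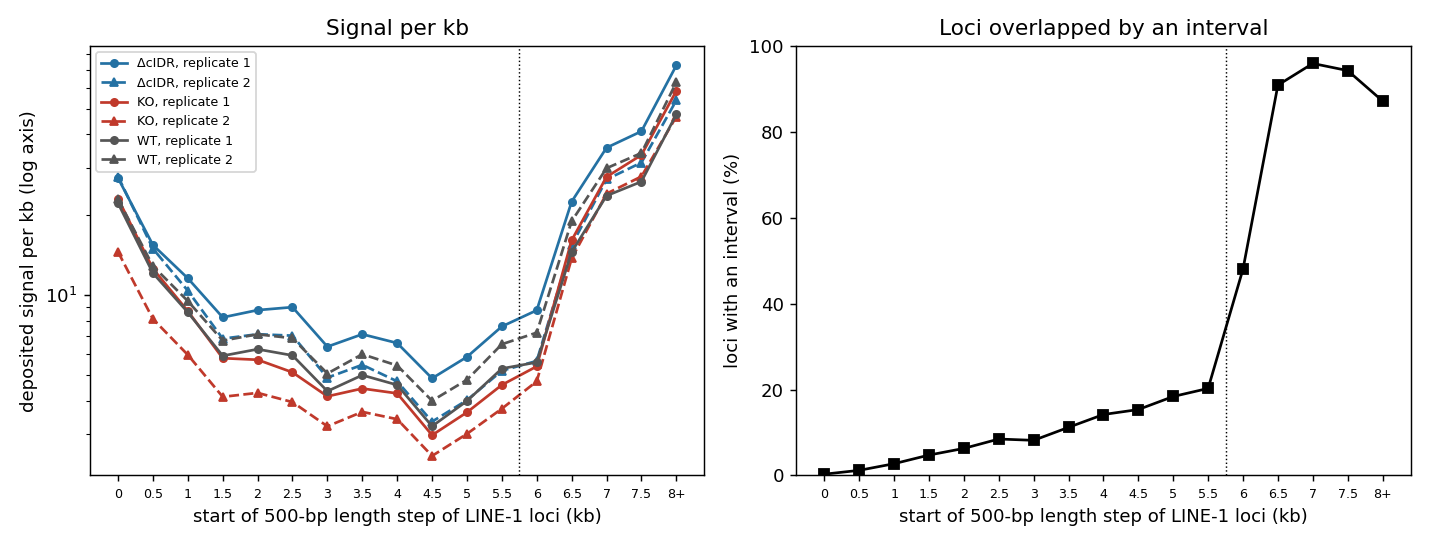
Left, deposited signal per kb (log axis) of L1 loci summed within length steps of 500 bp, by library. Right, the percentage of loci in each step overlapped by an interval. The dotted line marks 6 kb, the lower limit of the copies described, and the last step holds the 78 copies of 8 kb and longer, at 46.7 to 72.6 signal per kb.

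The copies nearest to the limit on either side, among those with a mean of at least 50 reads, did not form separate groups. Just inside it lay chr8:20558466-20564468 (6002 bp), chr6:6975453-6981458 (6005 bp) and chr18:46895488-46901499 (6011 bp), with 338, 28.4 and 38.2 mean signal per kb. Just outside it lay chr9:8143199-8149198 (5999 bp), chr16:13095856-13101854 (5998 bp) and chr18:89930326-89936323 (5997 bp), with 26.7, 48.4 and 38.1.

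The 5 copies with the highest signal per kb were all under 6.5 kb long. The first, chr2:20795469-20801514, had a signal of 6502 and 3945 in ΔcIDR, 3897 and 3994 in KO and 4115 and 5335 in WT, and no comparison of it was called. In chr2:150040774-150047077 the signal was 5798 and 4811 in ΔcIDR, 3832 and 3193 in KO and 4004 and 4842 in WT, also with no call. A copy with a difference between genotypes was chrX:59114364-59120440, which had 6382 and 4450 in ΔcIDR, 1269 and 1247 in KO and 3286 and 4103 in WT. Both KO libraries lay below all others. It fell by 1.54 ± 0.31 (SE) on the log2 scale in KO against WT, with a limma adjusted p of 0.000206, and was 4.22-fold higher in ΔcIDR than in KO, with a limma adjusted p of 4.4e-09. The other repeat loci within 20 kb of it had a summed signal of 2341 and 2797 in ΔcIDR, 1018 and 788 in KO and 1728 and 1651 in WT, the same order as in the copy.

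The other strong copies were chr10:121917790-121924060 and chr2:176785802-176792247. The copy on chromosome 10 had a signal of 6978 and 5032 in ΔcIDR, 2992 and 2659 in KO and 4219 and 5276 in WT. That on chromosome 2 had 5088 and 3504 in ΔcIDR, 2088 and 1923 in KO and 3103 and 3646 in WT. In both, the ΔcIDR and KO libraries did not overlap, and the log2 difference of ΔcIDR over KO was 1.07 ± 0.31 (SE), with limma adjusted p-values of 0.00596 and 0.00598. Neither was called against WT. These calls were lost in 11 and 14 of 25 alternative settings, the ERCC scale and edgeR with TMM among them, with log2 differences as low as 0.01 and 0.02. The copy with the most reads was also the longest, chr3:6362472-6378632, with 2748 and 2169 reads in ΔcIDR, 3858 and 4067 in KO and 2873 and 3646 in WT.

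Long L1 copies were far more often overlapped by an interval, the regions of the other deposited table, than repeat loci in general. Of the 12415 copies, 7315 (58.9%) had at least 1 interval, against 1.11% of shorter L1 loci and 0.945% of all repeat loci. The share was higher in each longer step than in the shortest and highest at 7.0 to 7.5 kb, at 48.0% for 6.0 to 6.5 kb, 90.9% for 6.5 to 7.0 kb, 95.9% for 7.0 to 7.5 kb, 94.3% for 7.5 to 8.0 kb and 87.2% for 8 kb and longer, against 20.3% for 5.5 to 6.0 kb. Copies with an interval held 92.6 to 93.6% of the reads of all copies in each library, and their median of mean reads was 27.5, against 1.67 in copies without one. Length and read number move together here, and the part of each in the calling of intervals was not tested.

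An interval counted as lying on a copy where at least 50% of its length did. By that rule, 27271 of 74299 intervals (36.7%) lay on these copies, with a median of 4 and at most 10 per copy with any. Intervals on the copies had a median length of 461 bp, against 335 bp for other intervals, but a median of only 2.17 mean reads, against 35.8. As a result 19.8% of them carried enough signal to be tested, against 68.8% of other intervals. They held 1.65 and 1.13% of interval reads in ΔcIDR, 1.91 and 2.40% in KO and 1.65 and 2.03% in WT, where KO and WT overlapped and both ΔcIDR libraries lay below the rest, though replicate 1 of ΔcIDR and of WT were nearly equal.

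Intervals were spread unevenly along the copies. Since the strand of a locus is not given, positions were measured from the nearer end, over 7247 copies shorter than 8 kb with an interval. Coverage by intervals was highest at 20 to 25% of the length from the nearer end, where 55.1% of the sequence lay under one, and had another peak of 44.7% at 5 to 10%. The outermost 5% of the copies had 27.6%, and the lowest value was 25.3% at 40 to 45%, near the middle. Reads lay mostly in the outer part, as intervals centred between 10 and 15% held 18.6% of the interval reads on these copies and those between 35 and 40% held 2.18%.

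The strongest intervals on long copies lay on copies of 9016 to 16160 bp. These intervals were 3291 to 10345 bp long, against a median of 461 bp, and their signal was not divided by length. The 5 with the highest mean signal were chr3:6362434-6372779, chr5:68374488-68379518, chr3:91002452-91007657, chr10:27693776-27701839 and chr6:66983392-66986683, on copies of 16160, 9056, 11136, 13237 and 9016 bp. The first had 2437 and 2033 reads in ΔcIDR, 3483 and 3679 in KO and 2607 and 3203 in WT. None of the 5 was called in a comparison on the deposited scale. After centring, chr6:66983392-66986683 and chr3:6362434-6372779 were lower in ΔcIDR than in KO, with log2 differences of −0.81 ± 0.18 and −0.45 ± 0.15 (SE) and limma adjusted p-values of 0.00365 and 0.0309.

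As a class, long copies did not differ between genotypes by more than the spread between replicates. They took 1.56 and 1.07% of all repeat reads in ΔcIDR, 1.45 and 1.90% in KO and 1.39 and 1.70% in WT. KO and WT overlapped, as did ΔcIDR with both. The log2 difference of the share was 0.11 ± 0.25 (SE) for KO against WT, −0.24 ± 0.31 for ΔcIDR against WT and −0.35 ± 0.34 for ΔcIDR against KO. On the deposited scale the summed signal was 1091558 and 744272 in ΔcIDR, 747230 and 644183 in KO and 703785 and 910918 in WT, with log2 differences of −0.21 ± 0.21, 0.17 ± 0.33 and 0.38 ± 0.30 (SE) in the same comparisons. An exact two-sided permutation test of 2 against 2 libraries cannot give a p below 0.333, and none is given.

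Replicates of 1 genotype differed along the whole class. After centring, 20.4% of the tested copies were higher in replicate 2 than in replicate 1 of ΔcIDR, 81.1% in KO and 66.7% in WT. The median absolute log2 difference between replicates over the copies was 0.56 in ΔcIDR, 0.41 in KO and 0.38 in WT, against 0.38, 0.31 and 0.37 over all tested loci. The library in each genotype with the higher ratio of m6A to unmodified spike-in also had the larger share of long L1 reads in KO and WT but not in ΔcIDR, and whether the ratio has a part in the share was not tested.

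**Figure D2:**
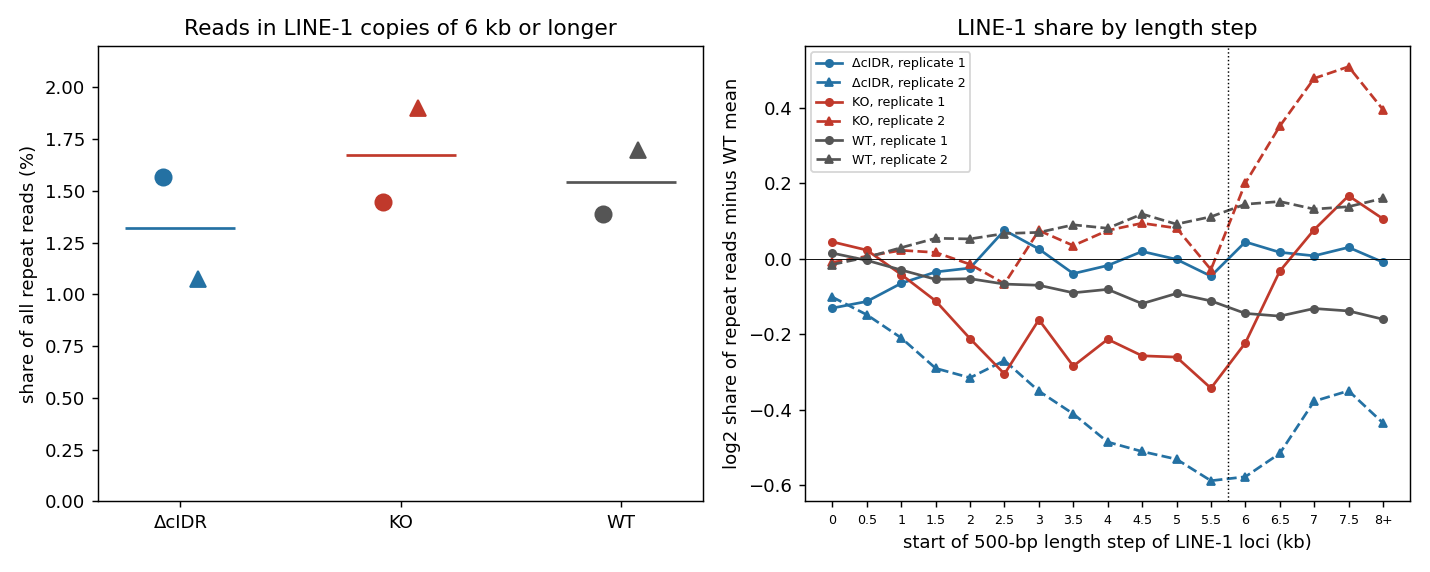
Left, percentage of repeat reads in L1 copies of 6 kb and longer, with 1 point per library and a line at each genotype's mean, at 1.07 and 1.56% in ΔcIDR, 1.45 and 1.90% in KO and 1.39 and 1.70% in WT. Right, log2 share of repeat reads of L1 loci minus the WT mean, by length step and library, where replicate 2 of ΔcIDR lies below all other libraries in each step of long copies and replicate 2 of KO above them.

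The log2 differences of KO against WT were larger in the longer steps, which was not tested as a trend, and most were near their standard errors. The log2 share in KO against WT was −0.19 ± 0.19 for L1 loci of 5.5 to 6.0 kb, then −0.01 ± 0.26, 0.16 ± 0.24, 0.28 ± 0.24, 0.34 ± 0.22 and 0.25 ± 0.22 (SE) over the 5 steps of long copies. ΔcIDR against KO ran from −0.26 in the 6.0 kb step to −0.50 at 7.5 kb and −0.47 at 8 kb and longer. In limma over 138 sums of families and length steps on the deposited scale, 0 of the 5 long steps were called in KO against WT (1.45% of all sums were called), 0 in ΔcIDR against WT (0%) and 0 in ΔcIDR against KO (33.3%), and 0 had an unadjusted p under 0.05. After centring, 2 were lower in ΔcIDR than in KO, against 9.42% of all sums. They were the 7.5 kb step, which fell by 0.41 ± 0.15, with a limma adjusted p of 0.0288, and the step of 8 kb and longer, which fell by 0.39 ± 0.15 (SE), with a limma adjusted p of 0.0463. Without replicate 1 of ΔcIDR 5 steps were called after centring, and without any 1 of the other 5 libraries 0 were.

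Single copies could be tested where their mean signal reached 20, which 6910 of the 12415 (55.7%) did, and 5505 did not. All comparisons share libraries, so the values of 1 comparison are not independent of those of another. The median log2 change of the tested copies in KO against WT was −0.19, against −0.29 over all tested loci, and 0.08 after centring, against −0.01. In ΔcIDR against WT it was 0.13, against 0.33 over all loci, and −0.19 after centring, against 0.01. In ΔcIDR against KO it was 0.31, against 0.61, and −0.29 after centring, against 0.01. On each scale the long copies thus lay on the lower side of all loci in ΔcIDR, by amounts under the median replicate difference of 0.56 in that genotype.

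KO and WT differed at few long copies, and the balance of higher and lower calls depended on the scale. In KO against WT, 8 of the 6910 copies rose (0.175% of all tested loci did) and 57 fell (2.2%). After centring, 50 rose (1.32% of all loci) and 52 fell (2.16%). On the ERCC spike-in scale 105 were higher and 38 lower, and edgeR with TMM gave 103 higher and 54 lower. Shares among the copies were 0.116 and 0.825% on the deposited scale and 0.724 and 0.753% after centring, all below those over all loci. Leaving out 1 library gave between 6 calls (without WT replicate 2) and 140 (without KO replicate 1) in place of 65. Copies without an interval, 638 of the 6910 tested, gave 7 of the 8 that rose and 19 of the 57 that fell on the deposited scale, but 12 of 50 and 14 of 52 after centring. By length, centred calls were 19 up and 48 down among 4087 copies of 6.0 to 6.5 kb, 13 up and 3 down among 2125 of 6.5 to 7.0 kb, 9 up and 1 down among 518 of 7.0 to 7.5 kb, 7 up and 0 down among 113 of 7.5 to 8.0 kb, and 2 up and 0 down among 67 of 8 kb and longer. The same steps had 7 up and 51 down, 1 up and 4 down, 0 up and 2 down, and no call in either of the longest on the deposited scale, so the balance toward rises from 6.5 kb upward depends on centring.

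The tested copies that rose most in KO were weak ones with no interval, which reached the minimum signal for testing through their KO libraries. The largest change was at chrX:108350865-108356948, with a signal of 10.0 and 19.2 in ΔcIDR, 51.2 and 47.9 in KO and 0 and 4.91 in WT. It was 2.95 ± 0.73 (SE) higher in KO on the log2 scale, with a limma adjusted p of 0.00646, from 26 and 33 KO reads against 0 and 2 WT reads. Chromosome 6 gave the next 3. Of these, chr6:107880568-107886753 had the best-measured change, with 6 and 7 reads in ΔcIDR, 42 and 48 in KO and 3 and 4 in WT, 2.60 ± 0.57 (SE) higher in KO with a limma adjusted p of 0.00138.

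The other copies on chromosome 6 were chr6:66574837-66581673, with 55.1 and 58.1 in KO and 9.26 and 0 in WT, and chr6:62122130-62128485, with 63.0 and 46.4 in KO and 9.26 and 0 in WT. Their log2 changes were 2.87 ± 0.82 and 2.81 ± 0.75 (SE), with limma adjusted p-values of 0.0297 and 0.0158. The last was chr5:68332907-68339040, with 6.67 and 6.39 in ΔcIDR, 84.6 and 50.8 in KO and 4.63 and 9.82 in WT, a log2 difference of 2.57 ± 0.69 (SE) at a limma adjusted p of 0.016. In each of these 5 copies both KO libraries lay above both WT libraries, which the naming required, and above both ΔcIDR libraries. Their mean signals were 21.5 to 35.2, near the minimum of 20, with WT means of 2.45 to 8.38. They thus entered the test through the genotype in which they are high. All 5 calls in KO against WT were lost without the filter on low values, and each was lost in 5 to 9 of 22 to 24 settings.

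Other repeats beside them were often higher in KO too. Within 20 kb of chr6:107880568-107886753 the summed signal of other repeat loci was 10.0 and 3.20 in ΔcIDR, 337 and 192 in KO and 4.63 and 9.82 in WT. Beside chr5:68332907-68339040 it was 76.7 and 76.7 in ΔcIDR, 819 and 657 in KO and 69.5 and 83.4 in WT. The neighbourhood of chr6:62122130-62128485 had a mean of only 3.33 reads, with a signal of 0 and 12.8 in ΔcIDR, 9.84 and 10.2 in KO and 4.63 and 4.91 in WT. Both KO libraries lay above both WT libraries there, at a depth that measures it weakly.

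The copies that fell most in KO included a pair with over 100 reads on average. At chr12:18206755-18213363 the signal was 610 and 400 in ΔcIDR, 49.2 and 43.5 in KO and 333 and 326 in WT, and fell by 2.71 ± 0.37 (SE) in KO against WT with a limma adjusted p of 1.3e-09, or 0.153-fold. At chr4:147880893-147887041 it was 1014 and 783 in ΔcIDR, 78.7 and 37.7 in KO and 336 and 378 in WT, and fell by 2.59 ± 0.36 (SE) in KO with a limma adjusted p of 2.0e-09. On the deposited scale the KO libraries lay far below and the ΔcIDR libraries above those of WT in both copies.

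Their surroundings differed. Other repeats within 20 kb of the chromosome 12 copy had a signal of 4975 and 5399 in ΔcIDR, 1145 and 810 in KO and 3376 and 3080 in WT, the order seen in the copy. Around the chromosome 4 copy, where ERVK elements gave 81.7% of the neighbouring reads, it was 5001 and 5732 in ΔcIDR, 3728 and 2213 in KO and 4314 and 4015 in WT, a log2 difference of −0.53 against −2.59 in the copy. The number of gene copies at these places was not measured.

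The next 3 were weak and had no interval. In chr6:141661656-141668036 the signal was 43.3 and 12.8 in ΔcIDR, 0 and 5.81 in KO and 27.8 and 49.1 in WT. In chr1:92892724-92898825 it was 40.0 and 19.2 in ΔcIDR, 3.94 and 5.81 in KO and 53.3 and 44.2 in WT. In chr9:6757904-6764232 it was 93.4 and 32.0 in ΔcIDR, 3.94 and 0 in KO and 23.2 and 39.3 in WT. They fell by 2.52 ± 0.70, 2.45 ± 0.62 and 2.40 ± 0.64 (SE) in KO against WT, with limma adjusted p-values of 0.0216, 0.00897 and 0.0155, and both KO libraries lay below both WT libraries in each. The call at chr6:141661656-141668036 did not pass after centring, with a limma adjusted p of 0.0607, and was lost in 11 of 22 settings. Without the filter on low values all 3 calls were lost. Over KO and ΔcIDR alone, the copies on chromosomes 6 and 1 averaged under the minimum signal for testing, so they entered through WT.

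ΔcIDR and WT could hardly be told apart at the level of single copies. On the deposited scale 0 of 6910 copies rose in ΔcIDR (0.0547% of all tested loci) and 1 fell (0.0166%), with 265 at an unadjusted p under 0.05 in limma. The 1 call became 0 without ΔcIDR replicate 2 or WT replicate 1, and 15 copies were called without KO replicate 1. After centring, 0 rose (0.0625%) and 3 fell (0.0646%), with 614 at an unadjusted p under 0.05. The copy that fell was chr18:50791770-50798785, 7015 bp long with 5 intervals, at 130 and 76.7 in ΔcIDR, 199 and 168 in KO and 329 and 398 in WT. It fell by 1.80 ± 0.37 (SE) in ΔcIDR against WT, with a limma adjusted p of 0.00532, and other repeats within 20 kb of it were lower too, at 217 and 134 in ΔcIDR, 362 and 232 in KO and 459 and 427 in WT. The next smallest p-values were at chr8:68063613-68069983 (log2 1.80 ± 0.48, limma adjusted p 0.123) and at the chromosome 4 copy chr4:147880893-147887041 (log2 1.31 ± 0.36, limma adjusted p 0.143), neither of which passed.

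The 2 mutants differed from each other at more copies than either did from WT. Against KO, 269 copies were higher in ΔcIDR (18.6% of all tested loci were) and 36 lower (0.717%). After centring the balance turned, with 64 higher (6.17%) and 354 lower (4.74%), so that the direction of most calls depends on the scale. The share of the copies called lower was 5.12% after centring. In place of 305 calls, leaving out 1 library gave between 55 (without ΔcIDR replicate 1) and 532 (without KO replicate 1). Of the calls on the deposited scale, 263 of the higher and 35 of the lower ones had libraries that did not overlap. With 2 libraries per genotype most calls come with such libraries. The same count was not taken over all loci, so it adds no support to the calls.

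The largest difference between the mutants was at chr4:147880893-147887041, 3.9 ± 0.36 (SE) higher in ΔcIDR on the log2 scale, or 15-fold, with a limma adjusted p of 6.3e-24. It was followed by chr12:18206755-18213363 at 3.28 ± 0.37 (SE) with a limma adjusted p of 1.5e-15. In chr12:46513719-46519971 the signal was 80.0 and 76.7 in ΔcIDR, 11.8 and 0 in KO and 34.7 and 39.3 in WT, and the difference was 3.18 ± 0.56 (SE) with a limma adjusted p of 2.1e-06. On the Y chromosome, chrY:744669-750714 had 120 and 57.5 in ΔcIDR, 3.94 and 7.26 in KO and 30.1 and 14.7 in WT, 3.08 ± 0.59 (SE) higher with a limma adjusted p of 1.4e-05. The chromosome 9 copy chr9:6757904-6764232, named above, was 3.17 ± 0.64 (SE) higher in ΔcIDR with a limma adjusted p of 5.0e-05. Over KO and WT alone, the Y and chromosome 9 copies averaged under the minimum signal for testing, so they entered through ΔcIDR.

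In the other direction, chr15:24435572-24441691 had 2 and 0 reads in ΔcIDR, 20 and 62 in KO and 6 and 18 in WT. It fell by 3.09 ± 0.64 (SE) in ΔcIDR against KO with a limma adjusted p of 7.1e-05. At chr2:56790697-56797045 the signal was 6.67 and 0 in ΔcIDR, 66.9 and 47.9 in KO and 18.5 and 4.91 in WT, and fell by 3.01 ± 0.73 (SE) with a limma adjusted p of 0.000972. In chr12:47282344-47288611 it was 13.3 and 6.39 in ΔcIDR, 82.7 and 66.8 in KO and 27.8 and 29.4 in WT, and fell by 2.46 ± 0.55 (SE) with a limma adjusted p of 0.00029. The mean signals of these copies over all libraries were 32.3, 24.2 and 37.7, with KO means of 64.7, 57.4 and 74.7. Over ΔcIDR and WT alone each averaged under the minimum of 20, so they entered the test through the genotype in which they are high. The copies chr6:66574837-66581673 and chr5:68332907-68339040, which rose in KO, had log2 differences of −3.01 ± 0.82 and −2.62 ± 0.69 (SE) in ΔcIDR against KO, with limma adjusted p-values of 0.00404 and 0.00265. The call at chr12:47282344-47288611 was kept in all 24 settings, and the other calls downward named here were lost without the filter on low values.

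**Figure D3:**
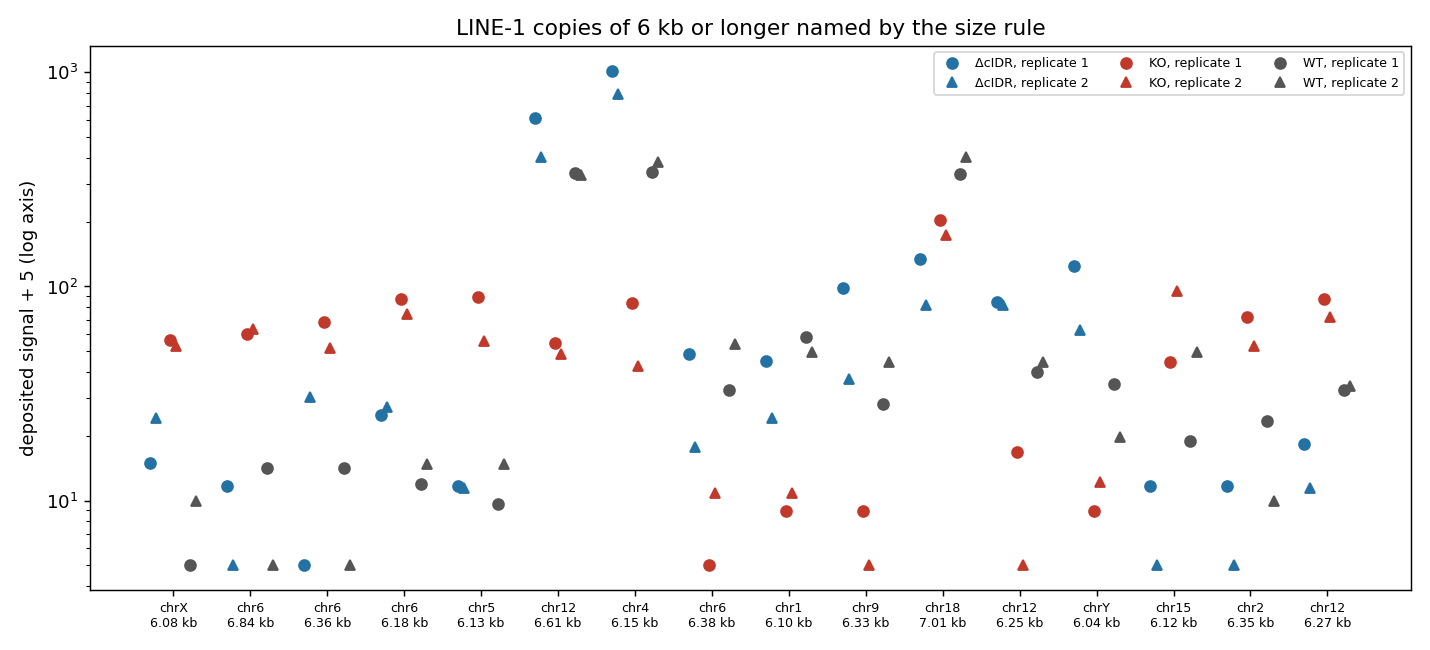
Deposited signal plus 5 (log axis) of the L1 copies with the largest called changes, by chromosome and copy length, with 1 point per library in the order ΔcIDR, KO, WT. The chromosome 12 copy at 400 to 610 signal in ΔcIDR and the chromosome 4 copy at 783 to 1014 have both KO libraries (37.7 to 78.7 signal) far below WT and ΔcIDR.

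Intervals on the copies were tested in the same way. In KO against WT, 4 of 5407 tested intervals on long copies rose (0.985% of all tested intervals did) and 84 fell (10%), and after centring 68 rose (4.68%) and 23 fell (7.28%). In ΔcIDR against WT, 6 rose (1.04%) and 1 fell (0.0874%), and after centring 0 rose (0.167%) and 2 fell (0.138%), with 415 at an unadjusted p under 0.05. In ΔcIDR against KO, 464 were higher (47.3%) and 25 lower (1.57%), and after centring 35 were higher (17.6%) and 457 lower (9.92%). Every share on the copies was below that over all intervals. Intervals on the copies also had fewer reads, as given above, and the part of depth in these shares was not tested.

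Among the intervals that rose in KO, chr6:5069265-5069558 had 12 and 8 reads in ΔcIDR, 33 and 31 in KO and 5 and 2 in WT, and was 1.84 ± 0.51 (SE) higher in KO with a limma adjusted p of 0.0064. The call at chr18:37767774-37768000 rests on 1 library, since its KO reads were 5 and 70, against 0 and 1 in WT, and it did not pass after centring (limma adjusted p 0.0595). At chrX:69103171-69103467 the KO libraries had 67 and 89 reads and those of WT 4 and 39, a log2 difference of 1.64 ± 0.43 (SE) at a limma adjusted p of 0.00333.

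The intervals that fell most in KO were on the chromosome 4 copy described above. Its interval chr4:147884117-147884577 had 36 and 21 reads in ΔcIDR, 0 and 1 in KO and 19 and 15 in WT, and fell by 2.24 ± 0.50 (SE) in KO with a limma adjusted p of 0.000437. Its intervals chr4:147886121-147886323 and chr4:147886500-147886991 were 2.83 ± 0.47 and 2.75 ± 0.51 (SE) higher in ΔcIDR than in KO, with limma adjusted p-values of 6.91e-08 and 1.25e-06. On chromosome 2, chr2:104755650-104756035 had 14 and 20 reads in ΔcIDR, 0 and 3 in KO and 22 and 16 in WT, and fell by 2.2 ± 0.52 (SE) in KO with a limma adjusted p of 0.0008.

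For ΔcIDR against WT, chr1:47144986-47146194 had 21 and 23 reads in ΔcIDR and 10 and 2 in WT, a log2 difference of 1.88 ± 0.49 (SE) at a limma adjusted p of 0.0243. The intervals chr1:63925483-63928062 and chrX:19697312-19699927 rose by 1.70 ± 0.48 and 1.46 ± 0.41 (SE), with limma adjusted p-values of 0.0413 and 0.044. None of these 3 passed after centring. The interval that fell was chr18:50793166-50793705 on the chromosome 18 copy named above, with 12 and 4 reads in ΔcIDR, 28 and 33 in KO and 36 and 45 in WT, by 1.65 ± 0.44 (SE) with a limma adjusted p of 0.0311. In ΔcIDR against KO the largest changes downward were at chr6:60290940-60291603, chr3:91039483-91040211 and chr9:124090014-124090215, which fell by 1.6 ± 0.51, 1.45 ± 0.55 and 1.42 ± 0.53 (SE), with limma adjusted p-values of 0.00539, 0.0211 and 0.0182.

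Other repeats beside the copies were then read as a measure that the choice of copies did not use. Over copies called in KO against WT after centring with enough neighbouring reads within 20 kb, the neighbours differed in the direction of the copy at 67 of 75 (89.3%), against 56.1% of 2137 tested copies that were not called. In ΔcIDR against KO this was 170 of 206 (82.5%), against 58.2% of 2006. Called copies also had larger changes of their own. Their median absolute log2 change was 1.26 against 0.29 in KO against WT, and 1.16 against 0.34 in ΔcIDR against KO. The part of that in these shares was not tested. Copies and neighbours come from the same libraries, so the shares are no independent support for the calls. How far reads of a copy belong to a longer transcript was not tested.

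Summed over copies, the repeats beside the longest copies were higher in KO than in WT. For this, which was examined after the data had been seen, every repeat locus outside L1 was assigned to its nearest L1 locus of at least 3 kb. Within 10 kb of the 200 copies of 7.5 kb and longer, 4174 such loci held 166.9 and 178.8 reads per 1000000 repeat reads (RPM) in ΔcIDR, 379.6 and 379.5 in KO and 197.3 and 193.0 in WT. The log2 difference was 0.96 ± 0.02 (SE) for KO against WT, −0.18 ± 0.05 for ΔcIDR against WT and −1.14 ± 0.05 for ΔcIDR against KO, and the KO libraries lay above all others. On the deposited scale these were 0.64, 0.24 and −0.40, so the direction of ΔcIDR against WT depends on the scale. The copies themselves held 1318 and 994 RPM in ΔcIDR, 1436 and 1782 in KO and 1181 and 1456 in WT, where KO and WT overlap.

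This difference was near the copy and was larger beside longer copies, without a test of the trend. Beside copies of 8 kb and longer, repeat loci at 0 to 5 kb were 3.40-fold higher in KO than in WT by share of repeat reads (log2 1.77 ± 0.04, SE), those at 5 to 10 kb 2.26-fold (1.18 ± 0.07), and those at 10 to 20 and 20 to 50 kb had log2 differences of 0.63 ± 0.09 and 0.37 ± 0.04. At 50 to 100 kb it was 0.65 ± 0.05, so the series did not end at 0. Beside copies of 7.5 to 8.0 kb the log2 difference was 0.45 ± 0.06 at 0 to 5 kb and 0.03 ± 0.04 at 50 to 100 kb. Beside copies of 6.0 to 6.5 kb it was 0.03 ± 0.04 at 0 to 5 kb. In ΔcIDR against WT the values beside copies of 8 kb and longer were −0.24 ± 0.07 at 0 to 5 kb and −0.47 ± 0.11 at 5 to 10 kb. All of these are sums, with errors over libraries and not over copies, and a few neighbourhoods weigh heavily in them. Beside copies of 8 kb and longer they averaged 1768 reads per library at 0 to 5 kb and 903.5 at 5 to 10 kb. Within 10 kb, chr3:91002308-91013444 alone gave 1315 and 1107 KO reads and 154 and 121 WT reads. The median over single neighbourhoods was 0.84.

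**Figure D4:**
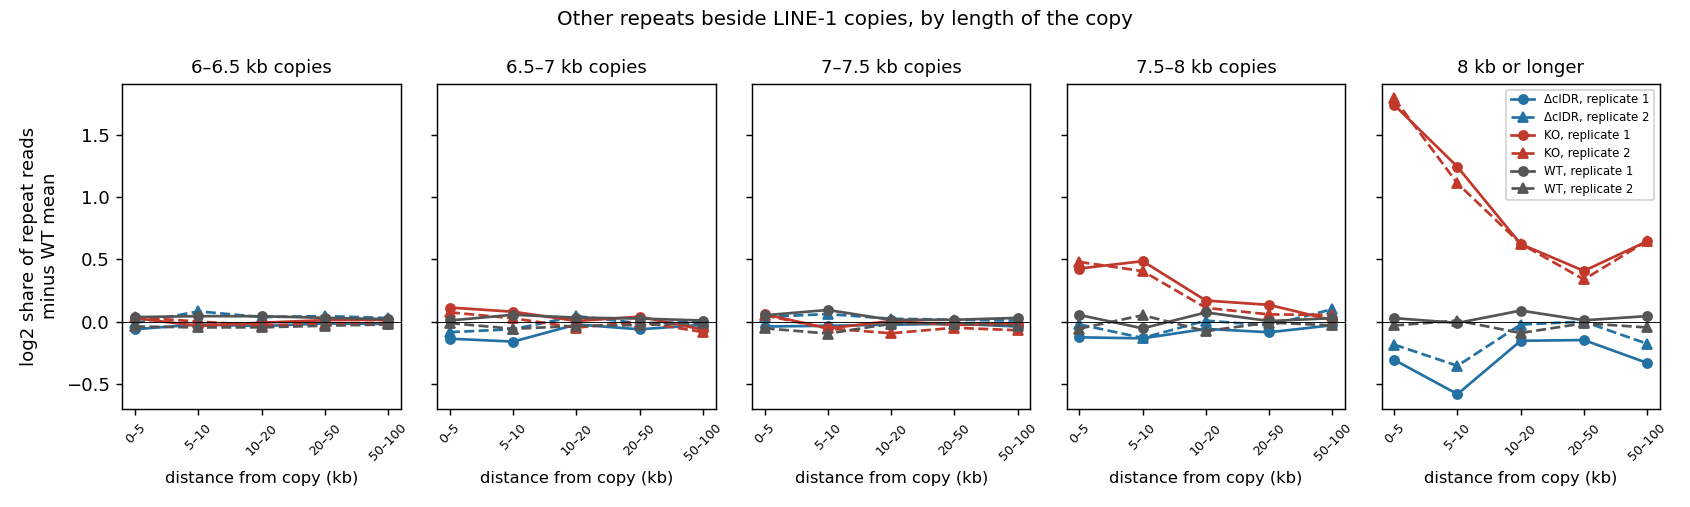
Log2 share of repeat reads minus the WT mean for repeat loci outside L1, summed over copies, by distance from their nearest L1 copy (kb) and by the copy's length, with 1 line per library. Both KO lines lie at 1.74 and 1.79 at 0 to 5 kb from copies of 8 kb and longer and near 0 beside copies of 6 to 6.5 kb.

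Single neighbourhoods of 10 kb were used where they had a mean of at least 5 reads over the 6 libraries. That held for 29 of the 78 copies of 8 kb and longer and 45 of the 122 in the 7.5 kb step. KO reads count in that mean, so a neighbourhood high only in KO could enter through KO. The median log2 difference of KO against WT over neighbourhoods was 0.01 beside copies of 6.0 to 6.5 kb, 0.09 at 6.5 kb, 0.22 at 7.0 kb, 0.61 at 7.5 kb and 0.84 at 8 kb and longer, against 0.04 for L1 loci of 5.5 to 6.0 kb. Both KO libraries lay above both WT libraries at 17 and below at 3 of 29 neighbourhoods of the longest copies, at 29 and 2 of 45 in the 7.5 kb step, and at 534 and 483 of 1735 in the 6.0 kb step. The sums behind these values have no test, and a limma fit over 4333 neighbourhoods of L1 loci of 3 kb and longer was used for one. It took neighbourhoods with a mean signal of at least 20, which left 25 at 8 kb and longer and 32 in the 7.5 kb step.

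In that fit after centring, 14 of 25 neighbourhoods of copies of 8 kb and longer rose in KO against WT and 0 fell, and 8 of 32 rose and 1 fell in the 7.5 kb step, against 12.6% higher and 12.5% lower over all neighbourhoods. In the 7.0, 6.5 and 6.0 kb steps, 18 of 134, 64 of 460 and 162 of 1380 rose and 14, 52 and 187 fell. On the deposited scale 9 of 25 and 5 of 32 rose in the longest steps, against 3.46% of all. In ΔcIDR against WT after centring, 1 of 25 rose and 1 fell, and 0 of 32 were called, against 2.58% and 1.57%. In ΔcIDR against KO after centring, 3 of 25 rose and 15 fell at 8 kb and longer, and 2 of 32 rose and 10 fell at 7.5 kb, against 19.2% and 18.5%. On the deposited scale 8 of 25 and 4 of 32 fell in that comparison, against 4.22% of all.

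Neighbourhoods were also split by the reads of the copy itself. Beside copies of 7.5 kb and longer, 24 of 52 (46.2%) whose copy averaged 100 or more reads were at least 1 log2 unit higher in KO than in WT, with 2 of 15 at 50 to 99 reads and 0 of 7 at fewer. Beside copies of 7.0 to 7.5 kb these were 13 of 64 (20.3%), 6 of 79 (7.59%) and 3 of 33 (9.09%), and beside copies of 6 to 7 kb 11 of 174 (6.32%), 31 of 370 (8.38%) and 160 of 1790 (8.94%). These shares were not tested. ERVK elements gave 25.8% of the reads within 10 kb of the copies of 7.5 kb and longer, MaLR elements 22.1%, SINE B2 12.8% and ERVL, the family of the MERVL retrotransposon, 3.35%.

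In several cases the reads lay on 1 side of the copy. Beside chr3:91002308-91013444 (11136 bp), the side at higher coordinates had 55 and 77 reads in ΔcIDR, 1309 and 1095 in KO and 150 and 116 in WT, while the lower side had 3 and 2, 6 and 12, and 4 and 5. Its neighbourhood was 7.60-fold higher in KO by share of repeat reads, with a log2 change of 2.87 in the centred fit and a limma adjusted p of 7.0e-11. The copy itself had 1560 and 1090 reads in ΔcIDR, 2099 and 2216 in KO and 1209 and 1640 in WT. It was 1.35-fold higher in KO against WT by share of repeat reads. After centring its log2 difference was 0.40 ± 0.15 (SE) with a limma adjusted p of 0.153. On the deposited scale it was 0.12 ± 0.31 (SE) with a limma adjusted p of 0.909.

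At chr5:68370525-68379581 (9056 bp) the reads were on the lower side instead, with 82 and 85 in ΔcIDR, 622 and 617 in KO and 116 and 140 in WT, and the higher side had 0 in all but 1 KO library, which had 5. The fit gave a log2 change of 2.01 with a limma adjusted p of 8.3e-09. Beside chr7:40815245-40824956 (9711 bp), the lower side had 31 and 34 in ΔcIDR, 546 and 546 in KO and 69 and 48 in WT, a log2 change of 2.95 with a limma adjusted p of 9.2e-10. Beside chr10:27688525-27701762 (13237 bp) it had 50 and 46 in ΔcIDR, 376 and 325 in KO and 53 and 82 in WT, a log2 change of 1.85 with a limma adjusted p of 3.8e-07.

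Both sides carried reads at chr6:66977611-66986627 (9016 bp) and chr2:22000772-22012125 (11353 bp). Within 10 kb, the chromosome 6 copy had 307 and 344 neighbouring reads in ΔcIDR, 1145 and 923 in KO and 428 and 417 in WT, a log2 change of 1.02 with a limma adjusted p of 2.1e-06. The chromosome 2 copy had 82 and 89 in ΔcIDR, 336 and 309 in KO and 122 and 125 in WT, a log2 change of 1.12 with a limma adjusted p of 3.2e-05. In all 6 neighbourhoods both KO libraries lay above the other 4. These were the copies of 8 kb and longer whose neighbourhoods within 10 kb had the most reads on average over all libraries. KO reads count in that average, so the choice favoured neighbourhoods high in KO and their order adds no support. Of the 29 neighbourhoods used at this length, both KO libraries lay above both WT libraries at 17. Over neighbourhoods of copies of 7.5 kb and longer, at least 90% of the reads were on 1 side at 13 of 26 (50%) that were at least 1 log2 unit higher in KO and at 16 of 48 (33.3%) of the rest. Beside copies of 6 to 7.5 kb these shares were 41.1% and 43.1%. As the strand of the copies is not given, which side lies downstream was not analysed.

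**Figure D5:**
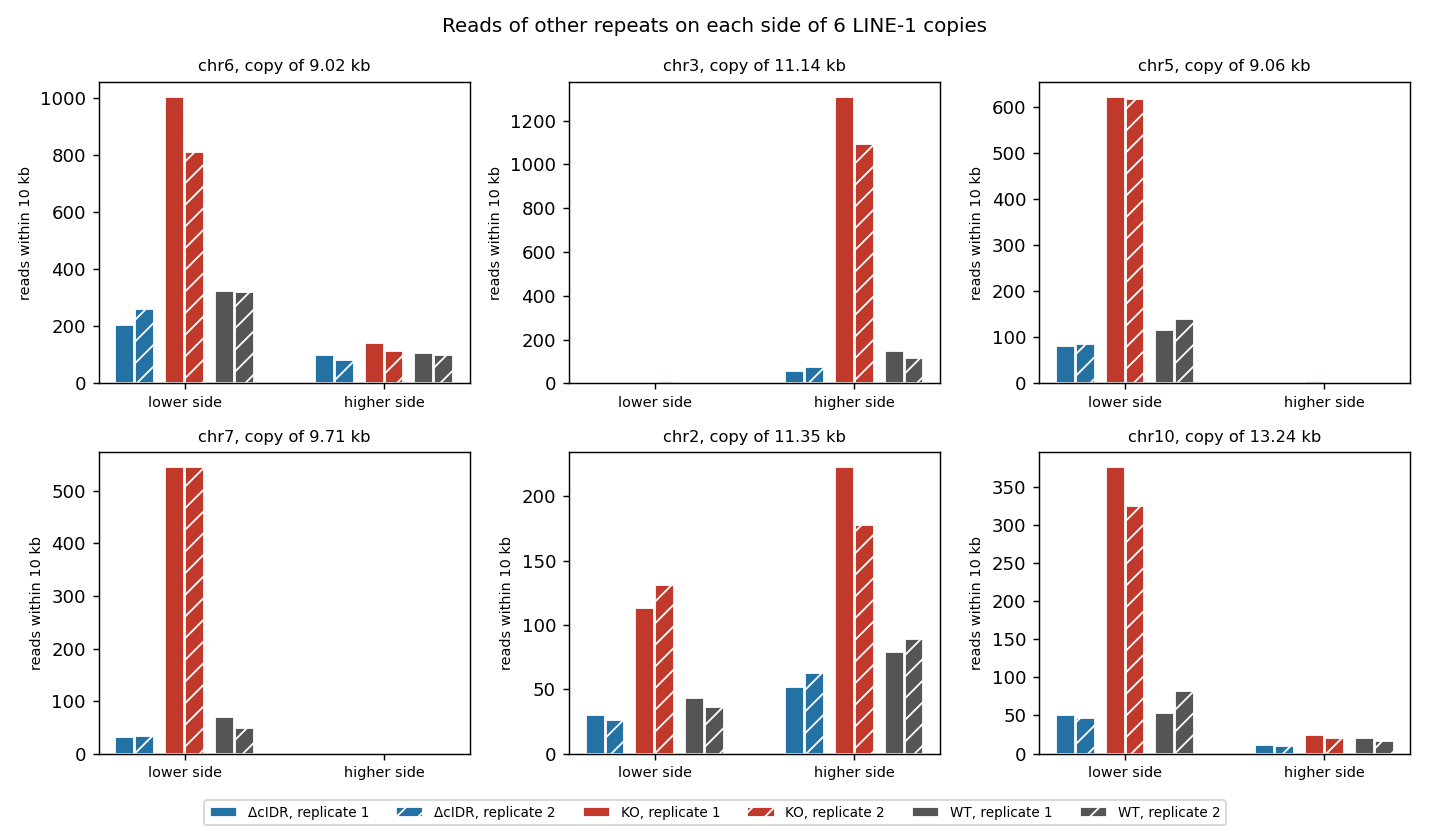
Reads of repeat loci outside L1 within 10 kb on the lower-coordinate and the higher-coordinate side of 6 L1 copies, with 1 bar per library in the order ΔcIDR, KO, WT. The copies are those of 8 kb and longer with the most such reads on average over all libraries, KO included. KO bars stand above the rest on 1 side at chromosomes 3, 5, 7 and 10 and on both sides at chromosomes 2 and 6.

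Set beside like groups, the long copies differed between KO and WT by less than their SE, and long ERVL loci by more than theirs. ERVL loci of 5 kb and longer took 0.329 and 0.379% of repeat reads in ΔcIDR, 0.671 and 0.749% in KO and 0.411 and 0.352% in WT, a log2 difference of 0.90 ± 0.14 (SE) for KO against WT, with KO apart from both other genotypes. L1 loci shorter than 6 kb had differences of −0.09 ± 0.13 with an interval and 0.01 ± 0.02 without one, against 0.11 ± 0.25 (SE) for the long copies. Differences between these groups were not tested.

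By chromosome, long copies were most numerous on X (1274), 1 (967) and 3 (933), and 41.7% of the 470 copies on Y had 0 reads. Of the 50 copies that rose in KO after centring, 13 lay on chromosome 6 and 5 on chromosome 8, which were 2.99% of the 435 and 1.65% of the 303 copies tested there. Over all tested loci of these chromosomes 4.47 and 3.23% rose, so the shares of the copies were below their chromosome's background. On chromosome 6 the copies' share of all long-copy reads was 0.17 ± 0.01 (SE) higher in KO against WT on the log2 scale, and that of other repeats was 0.34 ± 0.01 higher. On chromosome 8 the values were 0.11 ± 0.02 and 0.30 ± 0.01. Long copies thus differed on both in the direction of the other repeats of the chromosome and by less. Chromosome 11 had 0.04 ± 0.02 and 0.11 ± 0.01. On Y the copies had −0.08 ± 0.09 and the other repeats 0.61 ± 0.10, the largest value of any chromosome. In ΔcIDR against KO, the copies on Y had 0.08 ± 0.05 and the other repeats −1.09 ± 0.07. The number of chromosomes was not measured.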

How the data were processed

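The values are spike-in-scaled signal in 2 deposited tables, 1 of repeat loci and 1 of genomic intervals, each with 6 library columns, and 0 other columns of sample values were left unused. Per the submitters' processing notes, fastp, HISAT2, SAMtools, Picard, MACS2, featureCounts, bedtools and GRCm39 were used, with no version or role given, and the step that defined intervals is not given in the sources used here. Both deposited signal tables proved to be whole reads times 1 factor per library (100% of values within 1e-06 of a whole read), where the design had assumed normalized values, and its log-scale tests were kept.

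Log2(signal + 5) of loci with a mean signal of at least 20, and log2(signal + 0.5) of intervals with at least 1, were fitted with limma 3.58.1 in R 4.3.3, with 1 mean per genotype over all 6 libraries and Benjamini-Hochberg adjustment over the whole table at 0.05. edgeR 4.0.16 on the recovered reads was an alternative, as were other scales, minima and pseudocounts, a replicate block and leaving out each library. Centring subtracts each library's median over the features tested. Overlaps used bedtools 2.31.1. Tables and figures used Python 3.11.15, pandas 2.3.3, numpy 2.4.6 and matplotlib 3.10.9. The limma form was tried on simulated reads of loci and of neighbourhoods, after centring and for KO against WT only. The fits of intervals, of length steps and on the deposited scale, and edgeR, were not tried in this way. Errors of sums are standard errors over 2 libraries per group.

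Copies named were the 5 with the highest signal per kb among those with at least 50 reads on average, the 5 largest called changes in each direction without overlap of libraries (the 3 smallest p-values where fewer than 3 passed), and for intervals the 5 strongest and the 3 largest changes in each direction. The copies, lists and comparisons were chosen with earlier results of these data known, and the copies with the most reads, the neighbourhoods and the copies named with them were added after the data had been examined. Deviations of same-numbered libraries over the copies correlated at −0.02 to −0.10. A correlation over copies does not register a shift shared by all of them, so it cannot decide whether replicate numbers pair the samples. After centring, 81.1% of tested copies in KO, 66.7% in WT and 20.4% in ΔcIDR were higher in replicate 2. Limits for a count of 0 (3 reads) cover counting error only. The tables name no genes, and a genome of the build of the files was not used here, so sequences, genes and cell type markers were not analysed here.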

Additional observations from a re-analysis of the deposited data

Results flagged for a closer look

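On the deposited scale, 6 of the copies named had the mutants on opposite sides of WT. Both libraries of 1 mutant lay above and both of the other below both WT libraries. The difference between the mutants passed limma after Benjamini-Hochberg adjustment. On this scale the median log2 difference over all tested loci was itself −0.29 for KO and 0.33 for ΔcIDR against WT. Both ΔcIDR libraries were above and both KO libraries below WT at chr4:147880893-147887041, chr12:18206755-18213363, chr12:46513719-46519971, chrY:744669-750714 and chrX:59114364-59120440, where the log2 difference of ΔcIDR over KO was 3.9, 3.28, 3.18, 3.08 and 2.08. At chr12:47282344-47288611 the ΔcIDR libraries were below and the KO libraries above WT, with a log2 difference of −2.46. In reads before scaling, ΔcIDR and WT overlapped at chr12:18206755-18213363, with 183 and 125 against 144 and 133. They also overlapped at chrX:59114364-59120440, with 1914 and 1392 against 1419 and 1672, but not at the other copies. The order by share of reads was not counted. Of the intervals named, chr4:147884117-147884577 and chr4:147886500-147886991, both on the chromosome 4 copy, had ΔcIDR above and KO below WT on the deposited scale, with log2 differences of 3.23 and 2.75. The test is of ΔcIDR against KO, which is also the difference of the 2 effects against the shared WT libraries. Apart from chrX:59114364-59120440, these copies and both intervals were named for a called difference between the mutants without overlap of libraries. That they passed was therefore fixed by the naming. How many of all tested copies or loci had such an order was not counted. Of all tested loci, 18.6% were called higher in ΔcIDR than in KO and 0.717% lower. None of these copies and intervals was called in ΔcIDR against WT on the deposited scale.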

How the results depend on the processing

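Counts of calls in limma are given for KO against WT, ΔcIDR against WT and ΔcIDR against KO, in that order. For copies, where the deposited scale gave 65, 1 and 305, centring gave 102, 3 and 418, the ERCC scale 143, 41 and 1699, no filter on low values 0, 0 and 28 (533 and 482 at an unadjusted p under 0.05 for the counts of 0), a minimum 5 times as high 40, 1 and 200, and edgeR with TMM 157, 5 and 512. Of the calls in KO against WT, 8 were higher and 57 lower as deposited, 50 and 52 after centring, 105 and 38 on the ERCC scale and 103 and 54 with TMM, so the balance turned. In ΔcIDR against KO, 269 were higher and 36 lower as deposited, but 64 and 354, 29 and 1670, and 58 and 454 on those scales. edgeR on the deposited scale gave 63, 1 and 332. For ΔcIDR against WT, centring gave 4 without chromosomes 6, 8 and 11 and 2 with a replicate block. For intervals on copies, where the deposited scale gave 88, 7 and 489, centring gave 91, 2 and 492, no filter 0, 0 and 339 (1748 and 2214 unadjusted for the counts of 0), the higher minimum 40, 4 and 220, and edgeR 103, 1 and 528. The larger pseudocount gave 13 intervals for ΔcIDR against WT. For the length steps, centring turned 0 into 2 for ΔcIDR against KO. The cause of these shifts was not tested.

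Replicate numbers were not taken as pairs. The replicate block gave 46, 1 and 222 copies and 46, 0 and 333 intervals (188 at an unadjusted p for the 0), and 1 interval for ΔcIDR against WT after centring. Swapping the numbers of ΔcIDR in the block gave 73, 1 and 319 copies and 82, 7 and 476 intervals.

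Leaving out 1 library, before or after centring, with the lone library of a genotype assumed to vary like the others, gave 6 to 161, 0 to 62 and 55 to 633 copies, 11 to 169, 0 to 41 and 53 to 689 intervals, and 0, 0 to 1 and 0 to 5 length steps. On the deposited scale the copies called in KO against WT were 7 and 6 without WT replicate 1 and 2, 140 and 36 without KO replicate 1 and 2, and 40 and 41 without ΔcIDR replicate 1 and 2, so every library moved the count. The log2 difference of the summed signal ranged from −0.39 to −0.02, −0.11 to 0.45 and 0.10 to 0.65, that of the share from −0.09 to 0.31, −0.51 to 0.03 and −0.63 to −0.08, and that of the neighbours of copies of 7.5 kb and longer from 0.94 to 0.98, −0.23 to −0.13 and −1.19 to −1.09.

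The summed signal was 0.20, −0.49 and −0.68 on the ERCC scale and 0.10, −0.23 and −0.33 scaled to repeat reads outside intervals, against −0.21, 0.17 and 0.38 as deposited, so its direction depends on the scale. For the neighbours, alternatives chosen after the data had been seen gave, for KO against WT and ΔcIDR against KO, 1.00 and −1.20 without chromosomes 6, 8 and 11, 1.08 and −1.28 without the 5 neighbourhoods with the most reads, 0.75 and −0.86 without the 10 with the most, 1.09 and −1.31 without the first 1 kb, and 0.64 and −0.40 on the deposited scale. For ΔcIDR against WT they were −0.11 without the 10 neighbourhoods and 0.24 on the deposited scale, where the direction turned. Centring with a block, centred leave-outs, the swapped block and centring without the 3 chromosomes were also chosen after the data had been seen.

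Of 763 settings over 32 named calls, 562 kept the call, 201 lost it and 0 reversed it. With 2 libraries per genotype and a median of 11 reads per copy, most copies allow only large changes to be called, and 5505 of 12415 were not tested.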
